A study of Mus musculus with 42 samples.

Results

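The 10 genes described here are mouse genes of the response to metals and to oxidative stress: Hmox1, Mt1, Mt2, Slc30a1, Nqo1, Gclc, Gclm, Txnrd1, Srxn1 and Cbr3. They were picked by symbol, with earlier results of these data known, as 10 of the 45317 gene rows of the RNA count table. All 10 passed the filter on low counts that left 12529 genes for testing. The cells were bone marrow-derived multipotent mesenchymal stromal cells (MSCs) of C57BL/6 mice, bought as a commercial stock and used undifferentiated at passage 9 to 10 in all groups. They were treated for 48 h with tributyltin (TBT, 50 nM), AGN194204 (called 4204 here, 100 nM), rosiglitazone (ROSI, 100 nM) or the solvent alone (DMSO, 0.1%), with 6 RNA libraries per treatment. H3K4me3 and H3K27me3, histone marks of active promoters and of Polycomb-repressed chromatin, were mapped in 4 TBT and 4 DMSO libraries each, with 1 input library per treatment. TBT is an organotin that binds both the retinoid X receptors (RXR) and PPARγ, 4204 is a synthetic RXR agonist, and rosiglitazone is a drug that activates PPARγ. The comparison of interest was whether the organotin moved metal or oxidative stress genes beyond the RXR and PPARγ ligands.

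NRF2 (Nfe2l2) is a transcription factor that is kept low by KEAP1 and released when electrophiles or oxidants modify KEAP1. It then binds antioxidant response elements (ARE) of genes for glutathione synthesis, thioredoxin reduction and quinone and carbonyl reduction, while BACH1 represses part of the same genes, Hmox1 above all. MTF1 senses free zinc and binds metal response elements (MRE) in front of the metallothionein genes and the zinc exporter gene Slc30a1, and cadmium, zinc and some other metals induce these genes in many cell types.

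Promoter windows of 3 metal genes are shown because they hold matches to the MRE core, those of Mt2 and Slc30a1 also to the ARE core. Of the 3 genes 1, Mt2, passed the test in TBT against DMSO. Each window holds 250 bases before and 50 bases after the tabulated start of the gene, on the plus strand, from RefSeq (GRCm38.p6), and capitals mark matches on either strand to the MRE cores TGCACNC and TGCGCNC or to the ARE core TGACNNNGC. Mt2 (chr8:94172368-94172667), Mt1 (chr8:94178839-94179138) and Slc30a1 (chr1:191906531-191906830) read as follows, and the tabulated starts of Mt1 and Slc30a1 lie inside the annotated genes.
Mt2: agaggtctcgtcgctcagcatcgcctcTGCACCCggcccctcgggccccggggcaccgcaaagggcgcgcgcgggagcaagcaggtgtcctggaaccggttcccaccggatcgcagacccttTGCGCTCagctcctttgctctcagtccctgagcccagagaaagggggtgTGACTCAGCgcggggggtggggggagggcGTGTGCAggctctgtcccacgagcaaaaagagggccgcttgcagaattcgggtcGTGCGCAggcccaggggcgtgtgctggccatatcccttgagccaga
Mt1: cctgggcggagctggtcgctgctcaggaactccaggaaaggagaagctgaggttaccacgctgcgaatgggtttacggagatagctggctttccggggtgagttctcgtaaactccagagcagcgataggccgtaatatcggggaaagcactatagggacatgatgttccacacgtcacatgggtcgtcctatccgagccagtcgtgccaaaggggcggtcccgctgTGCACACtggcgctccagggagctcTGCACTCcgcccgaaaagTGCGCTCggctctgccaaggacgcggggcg
Slc30a1: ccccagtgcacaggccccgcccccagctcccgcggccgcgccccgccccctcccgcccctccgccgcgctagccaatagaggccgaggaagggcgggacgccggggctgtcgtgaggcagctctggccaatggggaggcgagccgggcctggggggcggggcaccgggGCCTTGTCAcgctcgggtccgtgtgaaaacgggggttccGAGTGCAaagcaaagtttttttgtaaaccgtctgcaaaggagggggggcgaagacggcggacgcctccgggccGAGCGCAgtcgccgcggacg

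The Mt2 window held 4 MRE core matches and 1 ARE core match, TGACTCAGC. The Mt1 window held 3 MRE core matches and 0 ARE core matches. The annotated Mt1 gene starts at 94178883, and all 3 matches lie after that position, inside the gene. The Slc30a1 window held 2 MRE core matches and 1 ARE core match, which lay on the minus strand. The annotated Slc30a1 gene starts at 191906697, and these matches also lie after that position. At least 1 MRE core stood in 25.9% of the 32544 tabulated promoter windows of the same length, at least 3 in 1.99% and at least 4 in 0.522%, and at least 1 ARE core stood in 12.4%. Of the NRF2 target genes with a tabulated promoter, Gclm, Srxn1 and the second of 3 starts of Txnrd1 had 1 ARE core match each, and Nqo1 and Cbr3 had 0 in this window. In Gclm the ARE match overlapped 1 of its 3 MRE matches. Promoters of Hmox1 and Gclc were not printed. A match describes these letters only.

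The libraries held 3801758 to 5347365 counts in genes and no pair of replicates agreed closely enough to be 1 library listed more than once (chi-square per degree of freedom of at least 1.35). Whether the 6 libraries of a treatment stem from different cultures is not stated in the labels, and p-values describe the spread among these libraries, which may be technical. TBT replicate 2 stood apart with the most gene counts, the highest share of reads outside genes (24.3%) and the lowest share of spike-in counts, and results that turn on it are also given without it. All 11 stromal markers passed the filter, with a summed level of 5239 to 6324 CPM in TBT, 5534 to 6299 CPM in 4204, 5324 to 5703 CPM in ROSI and 5305 to 5756 CPM in DMSO. Within that list members moved both ways in TBT against DMSO, with Ly6a (0.54), Pdgfrb (0.35), Col1a1 (0.16) and Col1a2 (0.16) higher and Thy1 (-0.58) and Cd44 (-0.41) lower on the log2 scale. Of 5 endothelial markers 1 passed, and their sum was 1.76 to 5.23 CPM in TBT, 2.05 to 3.66 CPM in 4204, 1.515 to 3.69 CPM in ROSI and 2.90 to 8.94 CPM in DMSO. Of 11 blood cell and macrophage markers 5 passed, with a summed level of 257.5 to 305.6 CPM in TBT, 270.7 to 293.6 CPM in 4204, 298.5 to 314.8 CPM in ROSI and 303.1 to 326.8 CPM in DMSO. Most of that sum was Cd34, with a mean of 218.9 CPM in TBT and 250.1 CPM in DMSO, followed by Cd14 (49.7 and 44.8 CPM). Cd34 (-0.19) and Mcpt8 (-2.455) were lower in TBT against DMSO on the log2 scale, and Cd14, Cd68 and Csf1r did not pass. Mcpt8 averaged 0.895 CPM in TBT and 5.175 CPM in DMSO. Adgre1 and Kit had 0 counts and Ptprc, the common marker of blood cells, had 5 over all 24 libraries. The part of these markers in the results below was not tested. Levels are library-scaled counts (CPM, counts relative to the TMM-adjusted library total), which were not divided by gene length, so they compare treatments and not genes. With bulk RNA, more or fewer cells of a type and more or less RNA per cell cannot be told apart.

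Of the 10 genes, 4 passed the threshold (an adjusted p of at most 0.05 over all genes tested) in TBT against DMSO, 3 of them higher and 1 lower, where 28.9% of all genes tested passed (15% higher and 13.9% lower). Hmox1, Cbr3 and Mt2 were higher and Nqo1 was lower. In 4204 against DMSO, Hmox1 and Cbr3 were higher and Gclc and Txnrd1 were lower, again 4 of 10, with 24.1% of all genes past the threshold (12.8% higher and 11.3% lower). In ROSI against DMSO, Hmox1 alone passed, 1 of 10, with 1.04% of all genes (0.615% higher and 0.423% lower). The median log2 difference of the 10 genes was 0.08 in TBT against DMSO, 0.03 in 4204 against DMSO and 0.07 in ROSI against DMSO, while the median of all genes tested lay at -0.0060, -0.0027 and 0.00037. These 3 comparisons share the DMSO libraries. Scaling by the ERCC spike-in RNA in place of gene counts turned the split of higher and lower calls to 4 and 0 for TBT, 2 and 0 for 4204 and 0 and 0 for ROSI. Over all genes tested, TBT against DMSO had 1878 higher and 1745 lower calls, and 1802 and 293 with spike-in scaling, which raised the log2 differences of single genes by a median of 0.0885. In 4204 against DMSO the counts were 1600 and 1414, and 908 and 300 with spike-in scaling.

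**Figure D1:**
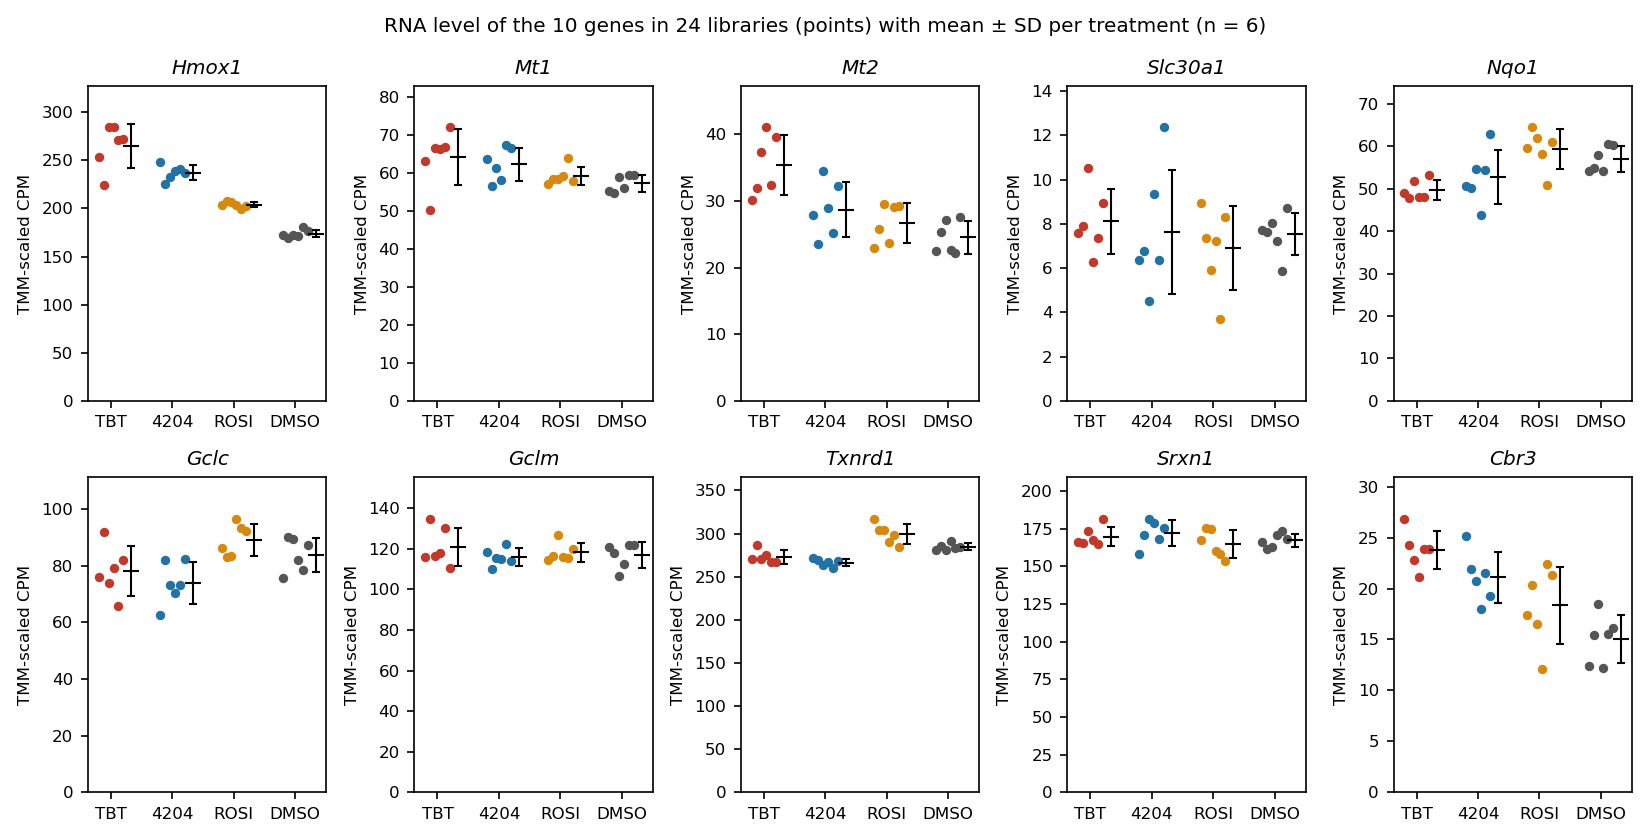
RNA level of each of the 10 genes (y axis, TMM-scaled CPM, from 0) in every library (points) by treatment, with mean and SD beside them (n = 6 per treatment). Hmox1 steps down over TBT, 4204, ROSI and DMSO, with TBT replicate 2 at 225 CPM as its lowest TBT point, while Gclm and Srxn1 overlap in all 4 treatments.

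Hmox1 encodes heme oxygenase 1, which breaks heme down to biliverdin, carbon monoxide and iron and is induced by heme, metals and oxidants. Its level was 225, 272 and 285 CPM (lowest, median and highest) in TBT, 225.5, 238 and 249 CPM in 4204, 199, 204 and 207.5 CPM in ROSI and 169.6, 173 and 180.3 CPM in DMSO. Every library of the 3 compounds lay above every DMSO library, every 4204 library lay above every ROSI library, and TBT overlapped with 4204 through TBT replicate 2, the lowest of the 6. The means were 265.0 ± 22.8 CPM in TBT, 237 ± 7.82 CPM in 4204, 204 ± 2.88 CPM in ROSI and 174 ± 3.96 CPM in DMSO (SD, n = 6 each). Against DMSO the log2 difference was 0.60 ± 0.04 (SE) for TBT, a 1.52-fold level (95% interval 1.43 to 1.61; edgeR quasi-likelihood test, adjusted p = 2.11e-14). It was 0.45 ± 0.04 for 4204 (adjusted p = 1.17e-10) and 0.23 ± 0.04 for ROSI (adjusted p = 0.00126). By p-value Hmox1 ranked 35 of 12529 genes in TBT against DMSO, 77 in 4204 against DMSO and 39 in ROSI against DMSO. The TBT and 4204 differences kept their call under all 18 other settings tried, and the ROSI difference lost it with spike-in scaling (0.19, adjusted p = 0.495).

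A marker of the fat lineage moved with Hmox1. Fabp4, a fatty acid-binding protein gene driven by PPARγ, averaged 36.3 ± 4.61 CPM in TBT, 21.45 ± 2.92 CPM in 4204, 18.5 ± 2.48 CPM in ROSI and 2.24 ± 0.93 CPM in DMSO. Over the 5 fat cell markers the summed level ran from 30.9 to 44.1 CPM in TBT, 17.2 to 25.6 CPM in 4204, 16.4 to 21.6 CPM in ROSI and 1.40 to 3.79 CPM in DMSO. The other 4 markers of that list were at or near 0, with 25 counts over 24 libraries for Plin1, 7 for Cfd, 1 for Adipoq and 0 for Lep. The part of these markers in the Hmox1 result was not tested. The 5 genes whose log2 CPM followed Hmox1 most closely over the 24 libraries were Fads3 (Pearson r = 0.97), Ucp2 (0.965), Gsn (0.965), Lpl (0.962) and Pdk4 (0.956). These r values are descriptive, since the points share treatments and libraries. Lpl, lipoprotein lipase, differed from DMSO by 1.21 in TBT, 1.01 in 4204 and 0.47 in ROSI on the log2 scale, and Pdk4, a kinase that turns off pyruvate dehydrogenase, by 1.79, 1.36 and 0.73.

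Mt2 and Mt1 encode metallothioneins, small cysteine-rich proteins that bind zinc, copper and cadmium. Mt2 stood at 30.1, 34.9 and 41.1 CPM (lowest, median and highest) in TBT, 23.55, 28.4 and 34.4 CPM in 4204, 22.9, 27.4 and 29.6 CPM in ROSI and 22.1, 23.95 and 27.6 CPM in DMSO. All 6 TBT libraries were above all DMSO and all ROSI libraries, and 3 of the 6 were above all 4204 libraries. Mt2 was higher in TBT than in DMSO by 0.52 ± 0.10 on the log2 scale (1.43-fold, adjusted p = 7.215e-05), and its differences from DMSO were 0.22 ± 0.10 in 4204 (adjusted p = 0.105) and 0.12 ± 0.10 in ROSI (adjusted p = 0.712). The TBT call held under all 18 other settings, and the 4204 difference passed in 1 of 18, without 4204 replicate 2 (adjusted p = 0.0448).

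Mt1 stood at 50.4, 66.6 and 72.2 CPM (lowest, median and highest) in TBT, 56.5, 62.6 and 67.4 CPM in 4204, 57.2, 58.4 and 63.95 CPM in ROSI and 54.9, 57.6 and 59.6 CPM in DMSO. In TBT, 5 libraries were above all DMSO libraries and replicate 2 was below all of them. The difference between TBT and DMSO was 0.16 ± 0.06 (adjusted p = 0.0675). Without TBT replicate 2 it was 0.22 (adjusted p = 0.00184), and with spike-in scaling 0.24 (adjusted p = 0.0234). The differences of 4204 (0.12 ± 0.07, adjusted p = 0.205) and ROSI (0.05 ± 0.07, adjusted p = 0.843) from DMSO passed under 0 of 18 other settings. The ratio of Mt2 to Mt1 CPM averaged 0.554 ± 0.065 in TBT, 0.461 ± 0.066 in 4204, 0.451 ± 0.0471 in ROSI and 0.428 ± 0.0389 in DMSO, and every TBT library was above every DMSO library. The 2 genes are similar paralogs, and the sources used here do not say how reads that match both were counted. Genes closest to Mt1 over the 24 libraries were Col5a2 (r = 0.894), Tagln (0.885), Serf2 (0.882), Krtcap2 (0.868) and Pcolce (0.866).

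Slc30a1, the zinc exporter of the cell surface, had the widest interval of the 10 genes. Its level was 6.30 to 10.5 CPM in TBT, 4.50 to 12.4 CPM in 4204, 3.69 to 8.925 CPM in ROSI and 5.88 to 8.70 CPM in DMSO, and the 4 ranges overlapped. The difference between TBT and DMSO was 0.10 ± 0.20 (95% interval -0.30 to 0.49, adjusted p = 0.756). In fold terms the interval ran from 0.815 to 1.41 times the DMSO level, and ratios within it are compatible with these counts.

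**Figure D2:**
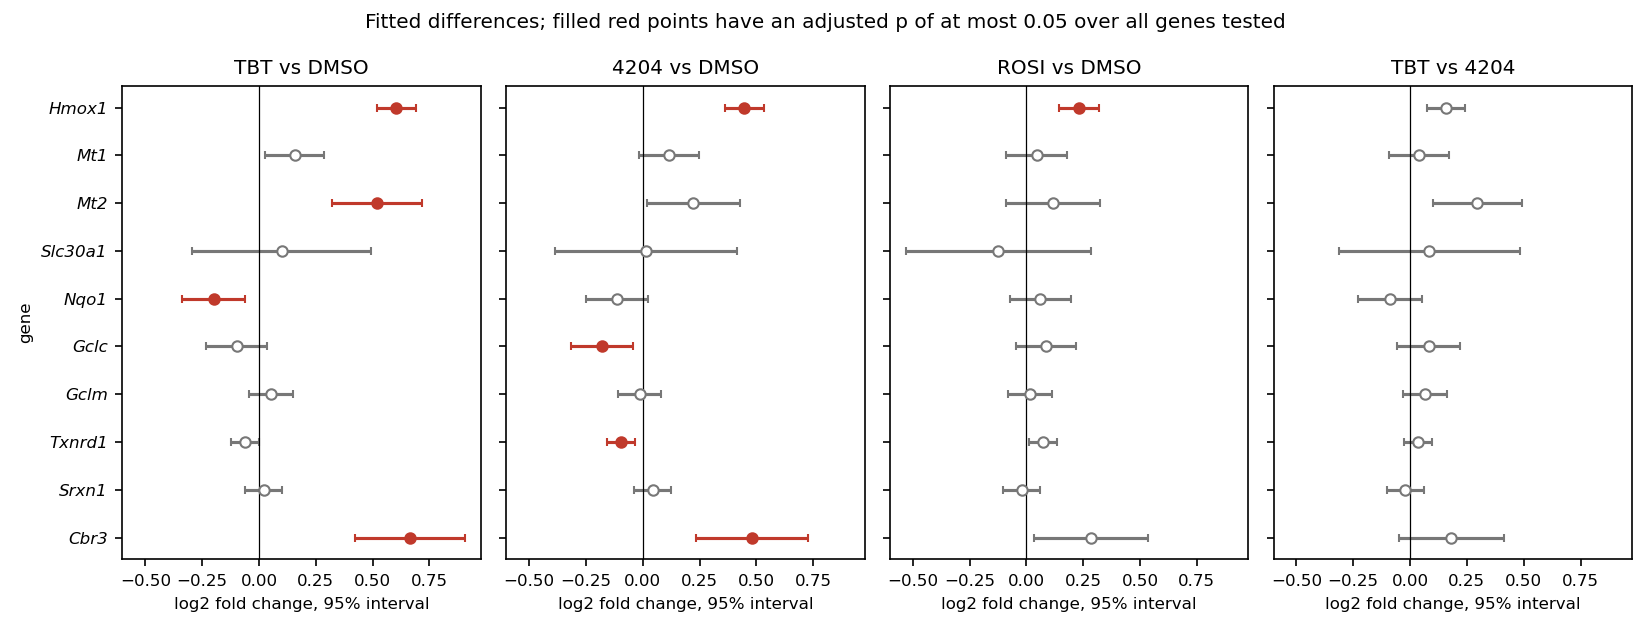
Fitted log2 fold changes (x axis) with 95% intervals for the 10 genes (y axis) in 4 comparisons; filled red points passed an adjusted p of at most 0.05 over all genes tested. Hmox1 passed against DMSO for each of the 3 compounds and no gene passed in TBT against 4204, where Hmox1 lay at 0.16 and Mt2 at 0.30.

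Among the NRF2 target genes, Cbr3, a carbonyl reductase, was higher in TBT and in 4204. Its level was 21.2, 23.9 and 26.9 CPM (lowest, median and highest) in TBT, 17.99, 21.1 and 25.2 CPM in 4204, 12.1, 18.9 and 22.4 CPM in ROSI and 12.2, 15.5 and 18.5 CPM in DMSO. The TBT libraries did not overlap with DMSO, 5 of 6 of the 4204 libraries lay above all DMSO libraries, and ROSI overlapped with each of the others. The log2 difference from DMSO was 0.66 ± 0.12 in TBT (1.58-fold, adjusted p = 3.65e-05), 0.48 ± 0.12 in 4204 (adjusted p = 0.00277) and 0.28 ± 0.12 in ROSI (adjusted p = 0.356).

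Nqo1, the quinone oxidoreductase often used as a readout of NRF2, was lower in TBT. It stood at 47.7, 48.6 and 53.3 CPM (lowest, median and highest) in TBT, 43.7, 52.5 and 62.8 CPM in 4204, 50.9, 60.25 and 64.5 CPM in ROSI and 54.0, 56.4 and 60.5 CPM in DMSO. All 6 TBT libraries were below all 6 DMSO libraries, and 4204 and ROSI overlapped with DMSO. Nqo1 fell by 0.20 ± 0.07 on the log2 scale in TBT against DMSO (adjusted p = 0.0239). That call ended without DMSO replicate 5 (-0.18, adjusted p = 0.05705), without DMSO replicate 6 (-0.18, adjusted p = 0.05955) and with spike-in scaling (-0.11, adjusted p = 0.466). The difference was -0.11 ± 0.07 in 4204 (adjusted p = 0.245) and 0.06 ± 0.07 in ROSI (adjusted p = 0.7835).

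Gclc and Gclm encode the catalytic and the modifier subunit of the enzyme that starts glutathione synthesis. Gclc stood at 65.9, 77.6 and 91.9 CPM (lowest, median and highest) in TBT, 62.8, 73.3 and 82.25 CPM in 4204, 83.1, 89.1 and 96.6 CPM in ROSI and 75.55, 84.6 and 90.2 CPM in DMSO. The 4204 libraries were all below the ROSI libraries, and 4 of them below all DMSO libraries. Gclc fell by 0.18 ± 0.07 in 4204 against DMSO (adjusted p = 0.0470), a call that was lost in 10 of 18 other settings, with DESeq2 among them (adjusted p = 0.0686). In 8 of those settings a single library was left out, DMSO replicate 2, 3, 4 or 6 or 4204 replicate 1, 3, 4 or 5, with values from -0.19 to -0.14 and adjusted p-values from 0.0556 to 0.1475. In TBT the difference from DMSO was -0.10 ± 0.07 (adjusted p = 0.291). Gclm, at 110.8 to 135 CPM in TBT, 110.0 to 122.5 CPM in 4204, 115 to 127 CPM in ROSI and 107 to 122 CPM in DMSO, overlapped in all 4 treatments and passed in none of the comparisons.

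Txnrd1 reduces thioredoxin and Srxn1 repairs overoxidized peroxiredoxins. Txnrd1 stood at 267, 270.0 and 287 CPM (lowest, median and highest) in TBT, 259.6, 267 and 272 CPM in 4204, 285, 301 and 317 CPM in ROSI and 281, 284 and 292 CPM in DMSO. All 4204 libraries were below all DMSO libraries, and 5 of 6 TBT libraries were. Txnrd1 fell by 0.10 ± 0.03 in 4204 against DMSO (adjusted p = 0.01765), a call that was lost with spike-in scaling (-0.09, adjusted p = 0.572) and without the filter on low counts (adjusted p = 0.0853). In TBT the difference from DMSO was -0.06 ± 0.03 (adjusted p = 0.132), and without TBT replicate 2 it was -0.08 (adjusted p = 0.0324). Srxn1, at 165 to 181 CPM in TBT, 158 to 182 CPM in 4204, 153.5 to 175.5 CPM in ROSI and 161.5 to 173 CPM in DMSO, overlapped in all treatments and passed in none of the comparisons.

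The direct comparison of TBT with 4204 asks what the organotin did beyond an RXR ligand, although their doses differ (50 nM against 100 nM) and no other dose was measured. By edgeR, 0 of the 10 genes passed, where 0.846% of all genes did (0.407% higher and 0.439% lower). At an unadjusted p of at most 0.05 there were 2, Hmox1 and Mt2, for which no share of all genes is given. DESeq2 called 1, Hmox1, where it called 58 higher and 58 lower of 15090 genes. Hmox1 was 1.12-fold in TBT over 4204 (95% interval 1.05 to 1.18; log2 difference 0.16 ± 0.04, adjusted p = 0.0511), just outside the threshold. Over 18 other settings its adjusted p ran from 0.000167 to 0.219 and was at most 0.05 in 7, and the difference was positive in each. The lowest adjusted p came without TBT replicate 2, with a difference of 0.20, and among the other calls were those without TBT replicate 1, without 4204 replicate 1, with DESeq2, with its size factors and without the filter on low counts (adjusted p-values from 0.0322 to 0.0467). Mt2 was 1.23-fold (95% interval 1.07 to 1.40; 0.30 ± 0.10, adjusted p = 0.170), and its adjusted p ran from 0.0574 to 0.353 over the other settings. The intervals of the other 8 genes included 0, the widest being Slc30a1 (-0.31 to 0.48) and the narrowest Txnrd1 (-0.03 to 0.10). For each gene, differences within its own interval are compatible with these counts.

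**Figure D3:**
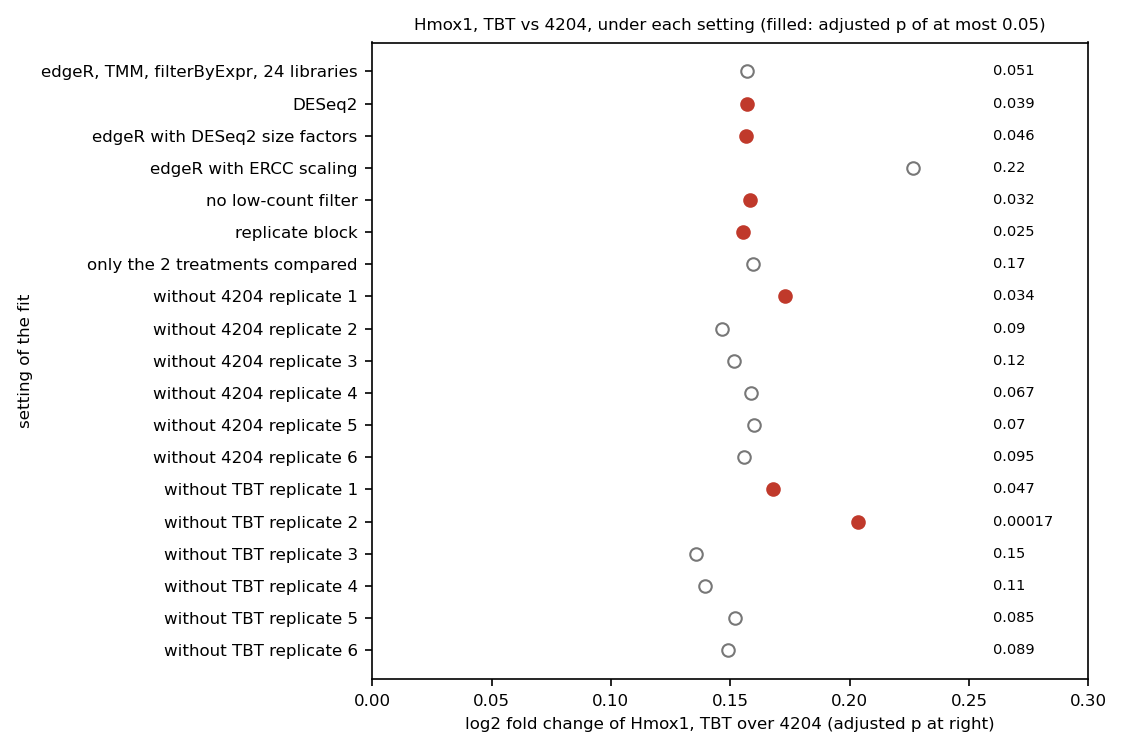
Log2 fold change of Hmox1 in TBT over 4204 (x axis, from 0) under the main fit at the top and 18 other settings (y axis), with the adjusted p at the right; filled points have an adjusted p of at most 0.05. The fold change stays between 0.14 and 0.23 while the adjusted p falls on both sides of the threshold, and the adjusted p is lowest without TBT replicate 2.

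In TBT against ROSI, where the doses differ as well, 6 of the 10 genes passed, with 28.7% of all genes past the threshold (15.2% higher and 13.5% lower). Hmox1 (0.37 ± 0.04), Mt2 (0.40 ± 0.10) and Cbr3 (0.38 ± 0.12) were higher, and Nqo1 (-0.26 ± 0.07), Txnrd1 (-0.14 ± 0.03) and Gclc (-0.18 ± 0.07) were lower. With spike-in scaling the split was 4 and 0, the 3 lower genes no longer passed and Mt1 did (0.23, adjusted p = 0.0223), as it did without TBT replicate 2 (0.18, adjusted p = 0.0132). The Gclc call was also lost without ROSI replicate 4, 5 or 6 and without TBT replicate 1, 3, 4 or 5, with adjusted p-values of 0.0528 to 0.124, and the Cbr3 call without ROSI replicate 4 (adjusted p = 0.0503). In 4204 against ROSI, 3 of 10 passed, with 24.7% of all genes past the threshold (13.5% higher and 11.2% lower). Hmox1 was higher (0.22 ± 0.04), and Gclc (-0.27 ± 0.07) and Txnrd1 (-0.17 ± 0.03) were lower. With spike-in scaling the split was 1 and 0, with Hmox1 higher. Nqo1 (-0.17 ± 0.07, adjusted p = 0.0573) passed without ROSI replicate 5 (-0.21, adjusted p = 0.0178) and without 4204 replicate 6 (-0.23, adjusted p = 0.00929).

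A further contrast set the TBT difference from DMSO against the sum of the 4204 and ROSI differences on the log2 scale. By edgeR 0 of 10 genes passed, with 0.327% of all genes past the threshold (0.136% higher and 0.192% lower). At an unadjusted p of at most 0.05 there were 0, for which no share of all genes is given. DESeq2 called 0, where it called 19 higher and 30 lower of 13560 genes. For Hmox1 the TBT difference was below that sum by 0.07 (-0.07 ± 0.06, 95% interval -0.19 to 0.05), and for Mt2 it was above it (0.18 ± 0.14, 95% interval -0.11 to 0.46). A missed threshold does not show that TBT equals the sum.

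Other genes of these pathways were read from 6 lists with 125 genes tested. In TBT against DMSO 28 (22.4%) were higher and 15 (12%) lower, where 15% and 13.9% of all genes were. In 4204 against DMSO 19 (15.2%) were higher and 14 (11.2%) lower, where 12.8% and 11.3% of all genes were, so both lower shares lay near those of all genes. In ROSI against DMSO 0 were higher and 0 lower by edgeR and by DESeq2, where edgeR called 0.615% and 0.423% of all genes. In TBT against 4204 there were likewise 0 by both, where edgeR called 0.846% of all genes. At such shares, 0 of 125 genes says little about these lists. At an unadjusted p of at most 0.05 there were 15 in TBT against 4204 and 10 in ROSI against DMSO, for which no share of all genes is given. Spike-in scaling gave 27 higher and 1 lower in TBT against DMSO and 11 and 2 in 4204 against DMSO, so most of the lower calls were not made under that scaling.

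Of 11 genes of the NRF2 machinery tested, 3 were higher and 0 lower in TBT against DMSO, with a median log2 difference of 0.11, and 4 and 1 in 4204 against DMSO, with a median of 0.05. The share called was 27.3% in TBT and 45.5% in 4204, beside 28.9% and 24.1% of all genes. Nfe2l2, NRF2 itself, averaged 119 ± 8.81 CPM in TBT and 124 ± 5.45 CPM in DMSO (-0.06 ± 0.05, adjusted p = 0.415). Keap1 differed by 0.02 ± 0.04 and Bach1 by -0.07 ± 0.08, neither past the threshold. Nfe2l1, a relative of NRF2 that controls proteasome genes, was higher by 0.23 ± 0.03, Sqstm1, the autophagy receptor p62 that binds KEAP1, by 0.19 ± 0.04, and Mafk, a small MAF partner, by 0.19 ± 0.07 (adjusted p-values of 5.69e-07, 0.00032 and 0.0498). In 4204 the 3 differences from DMSO were 0.17, 0.15 and 0.26, each past the threshold.

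Of 28 other NRF2 target genes tested, 7 were higher and 3 lower in TBT against DMSO, and 5 and 2 in 4204 against DMSO, with median log2 differences of 0.07 and 0.06. The share called was 35.7% in TBT and 25% in 4204, beside 28.9% and 24.1% of all genes. Aox1, an aldehyde oxidase (0.70 ± 0.13), Ephx1, the microsomal epoxide hydrolase (0.67 ± 0.10), and Slc7a11, the cystine importer that feeds glutathione synthesis (0.37 ± 0.08), were higher in TBT. In 4204 against DMSO, Aox1 (0.46 ± 0.13) and Ephx1 (0.49 ± 0.10) were also higher, and Slc7a11 (0.10 ± 0.08) did not pass. Slc7a11 averaged 68.4 ± 8.27 CPM in TBT, 57.0 ± 5.07 CPM in 4204, 50.9 ± 5.64 CPM in ROSI and 53.2 ± 6.56 CPM in DMSO, and its difference between TBT and 4204 was 0.27 ± 0.08 (adjusted p = 0.113). Gsr, glutathione reductase, was lower than in DMSO in TBT (-0.25 ± 0.05) and in 4204 (-0.18 ± 0.05). The ferritin genes Fth1 (0.04 ± 0.05) and Ftl1 (0.05 ± 0.06) did not pass in TBT.

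Of 22 zinc and copper handling genes tested, 5 were higher and 2 lower in TBT against DMSO, and 2 and 2 in 4204, with median log2 differences of 0.04 and -0.01. The share called, 31.8% in TBT and 18.2% in 4204, was near or below the 28.9% and 24.1% of all genes. Mtf1, the metal sensor, differed by -0.05 ± 0.08 in TBT (adjusted p = 0.738). Slc39a10, a zinc importer, fell to 64.9 ± 5.885 CPM in TBT, against 90.5 ± 4.71 CPM in DMSO (-0.47 ± 0.06, adjusted p = 1.46e-08), and in 4204 it was also lower (-0.32 ± 0.05). Ccs, the copper chaperone of superoxide dismutase, was higher in TBT (0.26 ± 0.06), with 0.10 ± 0.06 in 4204 (adjusted p = 0.286). Its difference between TBT and 4204 was 0.16 ± 0.06 (adjusted p = 0.323). Of 21 heme and iron genes tested, 3 were higher and 4 lower in TBT against DMSO (33.3% called, median 0.08), and 2 and 2 in 4204 (19% called, median -0.01). Slc40a1, the iron exporter (0.81 ± 0.27), Alas1, the first enzyme of heme synthesis (0.38 ± 0.07), and Blvra, which reduces the biliverdin made by heme oxygenase (0.26 ± 0.08), were higher in TBT. In 4204 against DMSO, Slc40a1 (0.97 ± 0.26) and Alas1 (0.42 ± 0.07) were also higher, and Blvra (0.19 ± 0.08, adjusted p = 0.0894) did not pass. Between TBT and 4204 Blvra differed by 0.07 ± 0.08 (adjusted p = 0.850). Tfrc, the transferrin receptor, was lower in TBT (-0.18 ± 0.06) and in 4204 (-0.28 ± 0.07).

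Of 27 other antioxidant enzymes tested, 7 were higher and 0 lower in TBT against DMSO, Sesn2 (0.63 ± 0.08) and the mitochondrial carrier Ucp2 (0.56 ± 0.04) among them, and 5 and 2 in 4204, with medians of 0.00 and 0.02. The share called, 25.9% in both, was near the 28.9% and 24.1% of all genes. Sesn2 (0.50 ± 0.08) and Ucp2 (0.47 ± 0.04) were also higher in 4204 against DMSO. Of 16 heat shock genes tested, 3 were higher and 6 lower in TBT against DMSO (56.2% called, median -0.08), and 1 and 5 in 4204 (37.5% called, median -0.01). Hspa1a (0.25 ± 0.12, adjusted p = 0.1085) and Hspa1b (0.05 ± 0.06, adjusted p = 0.559), the classic induced heat shock genes, did not pass. The chaperone genes Hsph1 (-0.25 ± 0.03) and Hspa4l (-0.32 ± 0.05) were lower in TBT and the co-chaperone gene Bag3 (0.29 ± 0.05) was higher. In 4204 against DMSO, Hsph1 (-0.14 ± 0.03) and Hspa4l (-0.14 ± 0.05) were also lower and Bag3 (0.25 ± 0.05) also higher.

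**Figure D4:**
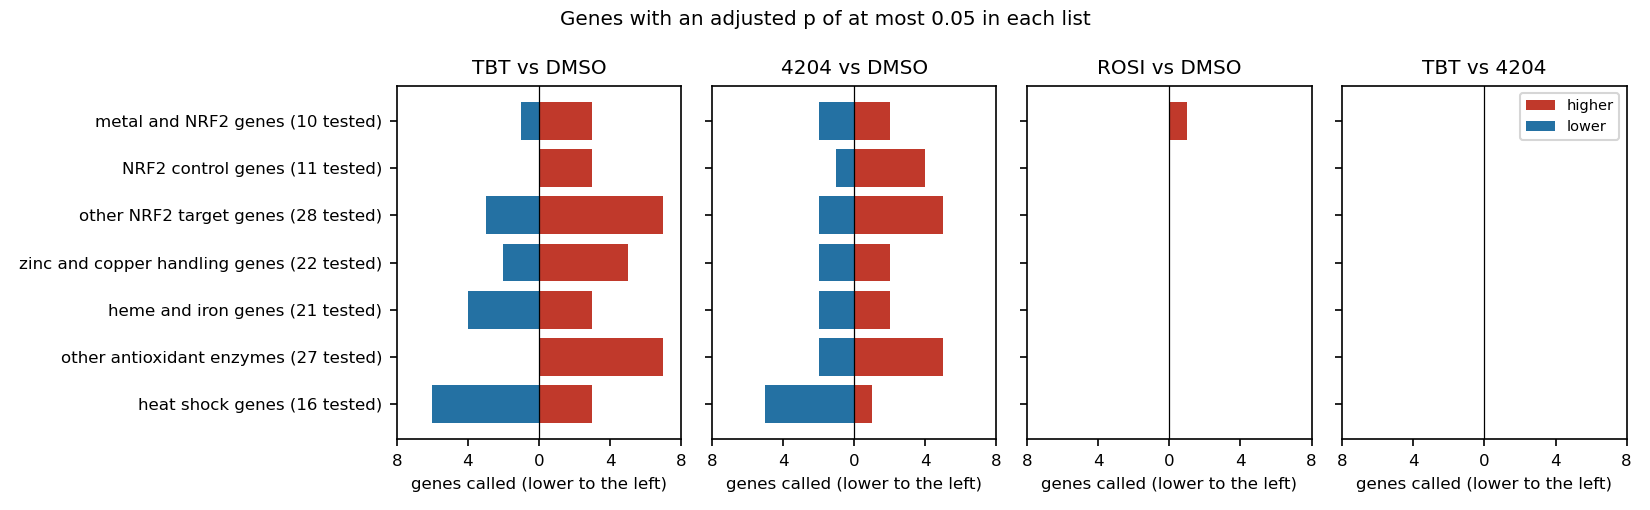
Number of genes past an adjusted p of 0.05 (x axis, higher to the right and lower to the left) in the 10 genes and 6 lists of related genes (y axis, with the number tested) in 4 comparisons. In TBT against DMSO the NRF2 control genes and the other antioxidant enzymes had higher calls alone. The other 4 lists had calls in both directions there. TBT against 4204 had 0 calls, where 0.846% of all genes passed.

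Chromatin at the gene starts was compared between TBT and DMSO. An H3K4me3 island, a stretch of enriched reads called by the authors in each library, lay over a start of each of the 10 genes in all 8 libraries. Of the 32812 tabulated starts, 39.7% had an H3K4me3 island in all 8 libraries. That share is per start, whether or not the gene passed the RNA filter, while the 10 genes all passed it and were counted over any start. At Txnrd1 the first of 3 starts had none and the other 2 had one. The strand of Hmox1 and Gclc is not in the tables used, so both ends of these 2 genes were searched and the island was read at the lower coordinate. After merging islands that overlapped, Mt1 and Mt2 shared 1 region, since the island of TBT replicate 1 spanned both. The reads of a library were counted only inside its own islands, so a sum over a region moves with how much of it was called as an island in that library, and the differences below are ratios of such sums, not changes in the height of the mark. By edgeR 0 of these 9 regions passed, where 0.164% of the 12813 regions tested did (0.109% higher and 0.0546% lower). At an unadjusted p of at most 0.05 there were 2, and DESeq2 called 1. For these 2 counts no share of all regions is given, so they say little about the 9 regions.

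The Hmox1 region (chromosome 8, 75080601 to 75102600, mm10) covers the whole gene. It held 124, 129, 131 and 153 CPM of H3K4me3 reads in TBT and 92.9, 102, 104 and 111 CPM in DMSO, with no overlap between these sums. The island over the gene was 7600 to 21400 bp long in TBT and 7000 to 10400 bp in DMSO, and per kb of that island it held 7.14 to 14.8 CPM in TBT and 8.94 to 13.2 CPM in DMSO, so that the groups overlapped. The log2 ratio of the sums was 0.39 ± 0.07 (95% interval 0.23 to 0.55, adjusted p = 0.0745 by edgeR and 9.83e-05 by DESeq2). Without TBT replicate 1, whose island was the longest, the difference was 0.32 (adjusted p = 0.120), and with stricter islands 0.34 (adjusted p = 0.326). The adjusted p over the 13 other settings ran from 9.83e-05 to 0.326. The part of island length in this difference was not tested.

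At Nqo1 the H3K4me3 region held 25.2 to 30.6 CPM in TBT and 30.3 to 49.0 CPM in DMSO (-0.39 ± 0.16, 95% interval -0.72 to -0.05, adjusted p = 0.519), with DMSO replicate 2, whose island was the longest, above the others. Its island was 2400 to 3400 bp long in TBT and 3000 to 8000 bp in DMSO, with 7.40 to 10.6 CPM per kb in TBT and 6.13 to 10.3 CPM per kb in DMSO, which overlapped. The shared Mt1 and Mt2 region differed by 0.01 ± 0.07 (95% interval -0.15 to 0.17). The other regions lay between -0.07 (Gclm) and 0.10 (Slc30a1), and all of their intervals included 0.

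**Figure D5:**
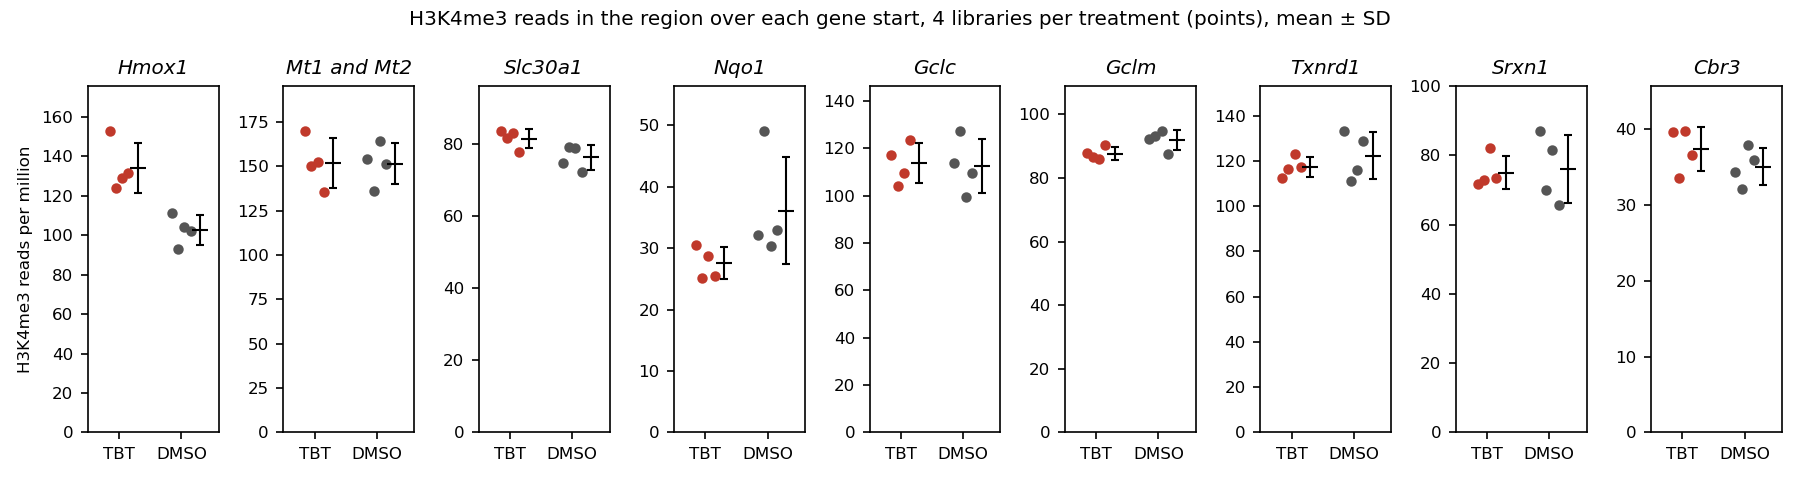
H3K4me3 reads (y axis, TMM-scaled CPM, from 0) summed over each library's own islands in the region at each gene start, by library (points), TBT left and DMSO right, with mean and SD (n = 4 per treatment). The Hmox1 region lies at 124 to 153 in TBT and 92.9 to 111 in DMSO, and the other regions overlap between treatments.

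For H3K27me3 the libraries with an island over the gene start were counted, and 6 of the 10 genes had one in at least 1 library, with 35.6% of the 32812 tabulated starts doing so. That share is per start, while a gene was counted over any of its starts, so the 2 numbers compare only roughly. Mt2 had one in 4 of 4 TBT and 1 of 4 DMSO libraries, and 0.829% of all starts had an island in 4 TBT and at most 1 DMSO libraries. These islands were weak, with 1.17 to 1.34 times the scaled input reads, and none of them remained at an FDR of 1e-10. The labels list 1 input library per treatment, so the islands of a treatment appear to rest on 1 shared control and are not independent of each other. A difference between the 2 inputs cannot be told apart from one between the treatments. Mt1, Slc30a1, Gclc and the first start of Txnrd1 had an island in 1 TBT and 0 DMSO libraries each, Cbr3 in 2 TBT and 0 DMSO libraries, and the other starts of Txnrd1 in 0 TBT and 1 DMSO libraries. Hmox1, Nqo1, Gclm and Srxn1 had 0 in all 8. Over all starts, 18.4% had an island in more TBT than DMSO libraries and 8.27% in fewer. The length covered by islands ran from 154913800 to 176872800 bp in TBT and from 106370400 to 166848000 bp in DMSO, and these ranges overlapped. The part of covered length in the Mt2 count was not tested.

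In the authors' deposited table of 4329 differential H3K27me3 peaks, 1 peak lay within 10 kb of Hmox1 (chromosome 8, 75109000 to 75117799), outside the gene, with a log2 concentration of 5.6 in TBT and 1.27 in DMSO and an FDR of 0.00473. The authors' deposited table held 3 peaks within 10 kb of Txnrd1. The one with the lowest FDR (8.02e-05, chromosome 10, 82865800 to 82873199), inside the gene, had a log2 concentration of 0.12 in TBT and 5.33 in DMSO. Of the other 2 in the authors' deposited table, 1 lay outside the gene and went the opposite way, with 5.06 in TBT and -0.19 in DMSO (82903000 to 82913199, FDR 0.00151). The last lay inside the gene and was lower in TBT, with 1.29 in TBT and 4.74 in DMSO (82881800 to 82885999, FDR 0.0355). At each of these peaks the lower of the 2 log2 concentrations was at most 1.29, a low level. In the authors' deposited table of 246 differential H3K4me3 peaks 0 lay within 10 kb of the 10 genes. How many of all genes have a listed peak of either mark within 10 kb was not counted, so these numbers say little about the 10 genes.

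Within treatments, after the treatment mean of log2 CPM was removed, 0 of the 45 pairs of the 10 genes had an adjusted p of at most 0.05 for Pearson's r in permutations within treatments, and 3 had an unadjusted p that low. The closest pair was Hmox1 and Mt1 (r = 0.763, permutation p = 0.00813, adjusted p = 0.296; Spearman's rho = 0.571, permutation p = 0.0103, adjusted p = 0.256; n = 24 libraries). Without the 2 libraries farthest from the median Hmox1 value, TBT replicates 2 and 3, r was 0.498.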

How the data were processed

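RNA counts and ChIP-seq islands of MSCs were analysed in 24 RNA, 8 H3K4me3 and 8 H3K27me3 libraries, grouped by the sample labels. The authors deposited raw read counts per gene symbol, and the 5 rows of reads given to no gene were left out (20.9% to 24.3% of counts lay outside genes and 1.85% to 2.02% were ambiguous). Tools in the submitters' processing notes are DESeq2, DiffBind, FastQC, SAMtools, SICER and STAR, with the builds mm10 and GRCm38. The sources used here do not state the counting program or its use of strand, and values of overlapping genes and paralogs are uncertain. For each ChIP library the authors deposited SICER islands with read counts, a fold over input as a ratio, a p-value and an FDR (window 200 bp, gap 600 bp, FDR 0.001, per the file names). The authors' deposited tables of differential peaks give log2 concentrations, a log2 fold (DMSO minus TBT), p-values and FDR.

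Counts were tested with edgeR 4.0.16 in R 4.3.3 (quasi-likelihood F test, TMM, filterByExpr) in 1 fit of 24 libraries, with Benjamini-Hochberg adjustment over 12529 genes. The common biological coefficient of variation was 5.24%. The log2 CPM used a prior count of 2. H3K4me3 reads were summed over merged islands and tested likewise in 8 libraries; a region was assigned by covering a start site. For Hmox1 and Gclc both gene ends were searched. Correlations used 100000 permutations within treatments. Alternatives were DESeq2 1.42.0, its size factors, ERCC scaling, no count filter, a replicate block, 2-treatment fits and leaving out single libraries (for RNA chosen after seeing the data). Intervals are 95%. The scripts were tested on simulated data.

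The 10 genes, the 6 lists and the marker lists were chosen with earlier results of these data known. The text names all 10 genes, from each list the called genes with the largest differences (up to 3 per comparison, given in part), Nfe2l2, Keap1, Bach1, Mtf1, Fth1, Ftl1, Slc7a11, Gsr, Hspa1a and Hspa1b, and the 5 genes most correlated with Hmox1 and with Mt1.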

Additional observations from a re-analysis of the deposited data

Results flagged for a closer look

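Of 60 groups of 4 to 6 libraries checked, 3 held a highest or lowest value whose gap to its neighbour, divided by the range of the group, was above Dixon's 95% critical value. By the level of that rule chance gives about 1 in 20 groups, which is also the share found. Mt1 in ROSI replicate 5 stood at 63.95 CPM, above the other ROSI libraries. The Nqo1 H3K4me3 region in DMSO replicate 2 held 49.02 CPM, above the other DMSO libraries. The Srxn1 H3K4me3 region in TBT replicate 3 held 82.05 CPM, above the other TBT libraries.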

How the results depend on the processing

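The calls of Hmox1, Cbr3 and Mt2 in TBT against DMSO and of Hmox1 and Cbr3 in 4204 against DMSO held under all 18 other settings, and no called difference changed sign. With ERCC scaling the number of the 10 genes past the threshold was 2 in 4204 against DMSO, 0 in ROSI against DMSO and 1 in 4204 against ROSI. In TBT against 4204 it was 1 (Hmox1) with DESeq2, with its size factors, without the count filter and with the replicate block. Leaving out 1 library gave 3 to 6 genes in TBT against DMSO, 3 to 5 in 4204 against DMSO, 1 in ROSI against DMSO, 0 to 1 in TBT against 4204, 4 to 7 in TBT against ROSI, 3 to 4 in 4204 against ROSI and 0 in the sum contrast. In those fits 12604 to 12625 genes were tested. Higher calls over all genes ran from 1692 to 1998 and lower calls from 1498 to 1907 in TBT against DMSO. They were 1424 to 1616 and 1189 to 1415 in 4204 against DMSO, and 59 to 78 and 32 to 70 in ROSI against DMSO. For TBT against 4204 they were 33 to 66 and 43 to 66, and for TBT against ROSI 1709 to 1952 and 1447 to 1774. For 4204 against ROSI they were 1438 to 1742 and 1107 to 1360. For H3K4me3 the count was 1 (Hmox1) with DESeq2 and with the replicate block and 0 to 0 when leaving out libraries, and no share of all regions is given for these settings. The number of genes with an H3K27me3 island was 6 at first and 0 at an FDR of at most 1e-10. With ERCC scaling 34 of the 45 residual correlations passed, and all 45 were positive. Spike-in scaling shifted the log2 differences of single genes by a median of 0.129 in TBT against ROSI and 0.118 in the sum contrast, and in TBT against ROSI it turned the split over all genes to 2426 higher and 172 lower, with 1908 and 1690 under TMM. The cause of these changes was not tested. The correlation of same-numbered libraries was not over 0.1 in every pair (r of -0.0456 to 0.123 for RNA and 0.00247 to 0.0844 for H3K4me3), so the numbers were not taken to pair them. As a hint from the data and not the design, 1 to 5 of 12 RNA libraries in each pair of treatments and 5 of 8 H3K4me3 libraries correlated best with their own number, where 2 would by chance. The block gave the counts above, and it added Mt1 in TBT against DMSO (adjusted p = 0.0377) and Nqo1 in 4204 against ROSI (adjusted p = 0.0339).

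Depth limits Slc30a1 most, at 4.50 to 12.4 CPM in 4204. Single doses, 1 time and 1 cell type limit every comparison. Sequencing runs are not stated in the labels and no values within runs are given.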
